A study of Mus musculus with 41 samples.

Results

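The collagen genes were taken as all protein-coding genes of mm10 whose symbol is Col, digits, a and digits, which gave 44 of 21938 genes. A peak was assigned to a gene when it overlapped the gene body plus 20 kb to each side by at least 1 bp, and the resulting stretch is called the window of the gene. The 44 genes were divided into 11 fibrillar collagens, 10 collagens of the basement membrane zone and 23 others. Collagen genes are long, with a median window of 154 kb against 57.4 kb over all protein-coding genes, so peaks are also given per Mb and apart for windows of at least 100 kb.

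CUT&RUN (CNR) releases and sequences the DNA around an antibody-bound protein, and the study used it to follow the transcription factor SOX9 and the enhancer methyltransferases MLL3 and MLL4 as epidermal stem cells (EpdSCs) were driven towards a hair follicle stem cell (HFSC) fate. In vivo, male CD1 mice of the genotype K14rtTA; TRE-myc-Sox9 received doxycycline (DOX), which turns on MYC-tagged SOX9 in keratin 14 positive cells. SOX9 was mapped without DOX (D0, postnatal day 21) and after 1, 2, 6 and 12 weeks of it (W1, W2, W6 and W12), whereas MLL3/4 was mapped up to W2. Donor mice were 28 days old for W1, 35 for W2 and 63 for W6, and W12 cells came from skin grafted onto Nude mice, so that weeks of DOX, age and grafting cannot be told apart. The sorted cells were CD49f-high, CD34-neg and Ly6A-high and negative for CD31, CD45, CD117 and CD140a, a gate that removes endothelial cells, leukocytes, melanocytes and fibroblasts. In culture, keratinocytes from mouse back skin expressed the full-length factor (WT-SOX9), a form lacking the transactivation domain (dTA-SOX9, labelled TRE-myc-Sox9noTA) or a form lacking the HMG domain that binds DNA (dHMG-SOX9, labelled TRE-myc-Sox9noHMG), all with K14rtTA and all introduced by lentivirus. The MYC tag and MLL3/4 were mapped in all 3 lines given DOX at 1 µg per ml, and in the WT-SOX9 line also without it.

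Collagens are the main structural proteins of the extracellular matrix. Fibrillar collagens such as types I, III and V form the fibres of the dermis and are made mainly by fibroblasts, and type II is the fibrillar collagen of cartilage, where SOX9 is known as the activator of the genes of types II, IX and XI. The basement membrane zone joins epidermis and dermis. Type IV collagen forms its network, type XVII is a transmembrane protein of the hemidesmosomes of basal keratinocytes, type VII forms the anchoring fibrils beneath, and types XV and XVIII are proteoglycans of basement membranes.

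Each of the 16 groups had 2 samples and 1 peak list called on both together. No spread between replicates could therefore be computed, no test between groups was made, and the 95% Wilson confidence intervals (CI) over peaks cover counting error only, on the assumption that peaks are independent. In such bulk data, fewer cells with a bound site and less binding per cell cannot be told apart. The SOX9 lists held between 792 (D0) and 20579 (W6) peaks, and the RPKM of a single fragment was between 30.7 and 76.4, so that the weakest SOX9 peak rested on 24 to 59 fragments. The MYC-tag lists with DOX held 3980 to 11341 peaks and their weakest peaks 8 to 11 fragments, and the depth of the MLL3/4 lists is unknown. In the windows of 5 epidermal stem cell markers, all 5 held D0 MLL3/4 peaks (57 in all) and all 5 held SOX9 peaks from W1 to W12, where D0 MLL3/4 peaks were found at 60.8% of all genes and W1 SOX9 peaks at 38.5%. Of 5 fibroblast markers, 2 held D0 MLL3/4 peaks (3 in all), none held one at W1 or W2, and SOX9 peaks were found in 0 at W1 and W2 and in 1 at W6 and at W12. At W1, SOX9 peaks were found at 3 of 5 markers each of HFSCs and melanocytes and at 1 of 5 each of endothelial and immune cells, and D0 MLL3/4 peaks at 3, 4, 2 and 2. With 5 genes a set, these counts give little on the make-up of the sorted cells, and the part of other cell types in the collagen values was not tested.

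To ask which collagen loci SOX9 reached after its induction, genes with at least 1 SOX9 peak were counted. At D0 there were 5 of 44 (11.4%), all of them outside the fibrillar class, against a background of 3.43% over all protein-coding genes. W1 had 26 of 44 (59.1%) against 38.5%, and W2 had 21 (47.7%) against 44.2%. W6 had 22 (50%) against 44.5%, and W12 had 23 (52.3%) against 26.2%. The share of collagen genes was thus near the background at W2 and W6 and above it at W1 and W12. The W1 count was 17 genes with lists cut to equal length, 17 with gene bodies without flanks and 13 above 3600 RPKM. The background was not recomputed for these settings. Among windows of at least 100 kb, where 28 of the collagen genes fall, the share at W1 was 67.9% against 51.3% of 4235 genes, and at W2 it was 50% against 55.7%. W6 had 53.6% against 59.8% there, and W12 60.7% against 45.9%, so that the excess at W12 was smaller among long genes. A SOX9 peak was present at any time from W1 to W12 at 32 collagen genes (72.7%) against 54% of all genes, and at every one of these times at 17 (38.6%) against 19.8%. Among windows of at least 100 kb these shares were closer to those of all genes, at 82.1% against 69.6% for any time and 39.3% against 34% for every time.

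Of the 10 basement membrane zone genes, 9, 8, 7 and 9 had a SOX9 peak from W1 to W12, and all 10 had a peak at some time. Their median window was 165 kb, and among all protein-coding genes with windows of at least 100 kb the shares with a peak were 51.3%, 55.7%, 59.8% and 45.9% over these times and 69.6% at any of them. Of the 11 fibrillar genes, 3, 4, 3 and 3 had a peak over the same times, and 4 had one at any of them. Among all protein-coding genes with windows under 100 kb, the shares were 35.4%, 41.5%, 40.8% and 21.5%, and 50.3% at any time. Of the 23 others, 14, 9, 12 and 11 had a peak over the same times. The 12 genes without a SOX9 peak at any time from W1 to W12 were the fibrillar *Col1a2*, *Col2a1*, *Col3a1*, *Col5a1*, *Col5a2*, *Col5a3* and *Col11a1* and the others *Col6a2*, *Col6a6*, *Col10a1*, *Col13a1* and *Col20a1*. The dermal fibre genes *Col1a2*, *Col3a1* and *Col5a1* were thus among those with no peak above 1800 RPKM within 20 kb of the gene at the 4 sampled times, as was *Col2a1*, the main collagen gene of cartilage. Fibrillar windows are shorter, with a median of 85 kb against 165 kb in the basement membrane zone and 147 kb in the others.

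**Figure D1:**
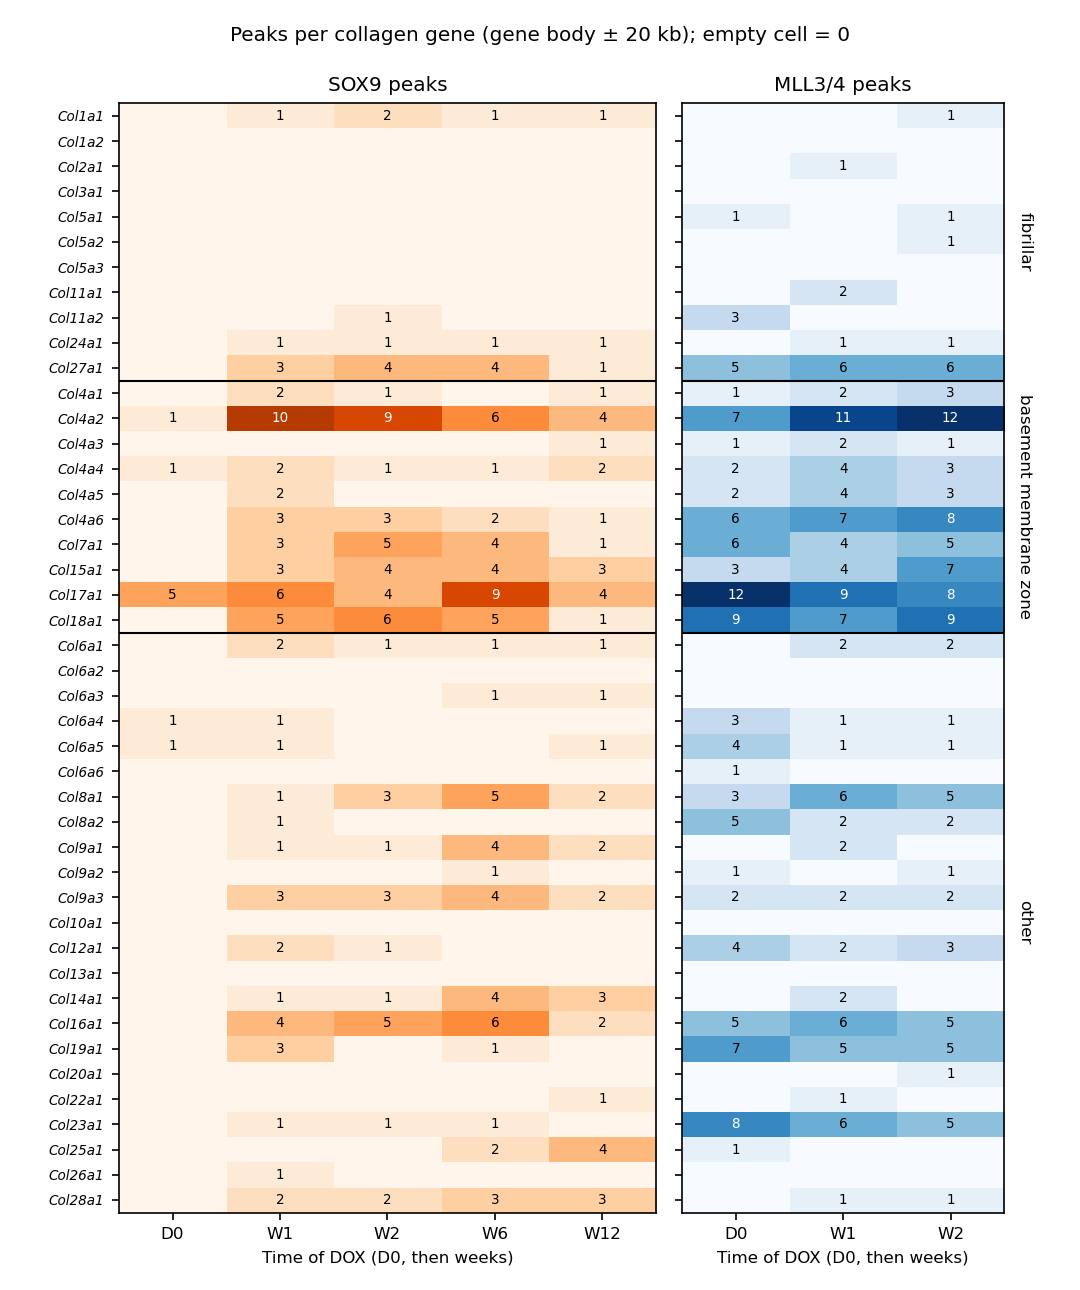
Number of SOX9 peaks (left) and MLL3/4 peaks (right) in the window of each collagen gene, 1 row per gene grouped by class and 1 column per time of DOX in sorted EpdSCs. Numbers and colour give the peak count and an empty cell is 0. *Col4a2* reached 10 SOX9 peaks at W1 and *Col17a1* 9 at W6, while 7 of the 11 fibrillar rows were empty for SOX9.

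Counted once over all collagen windows, SOX9 peaks numbered 8, 62, 58, 70 and 41 from D0 to W12. With the induced lists reduced to the length of the shortest, that of W12, by keeping the peaks with the highest total signal, the counts were 36, 37, 35 and 41 from W1 to W12, so that W12 was no longer the lowest of the induced times. In the lists as deposited, the basement membrane zone windows held 7, 34, 32, 31 and 16 SOX9 peaks from D0 to W12. The fibrillar windows held 0, 5, 8, 6 and 3, and the others 1, 23, 18, 33 and 22. Per Mb, the basement membrane zone windows held 20.9 SOX9 peaks at W1, against 3.4 in fibrillar windows and 5.99 in the others. At W12 the classes held 9.85, 2.04 and 5.73 peaks per Mb in the same order. Over all collagen windows the density was 8.94, 8.36, 10.1 and 5.91 peaks per Mb from W1 to W12, against 8.05, 9.82, 10.4 and 4.63 over all protein-coding windows, above that background at W1 and W12 and below it at W2 and W6. Per Mb, the basement membrane zone was the class richest in SOX9 peaks at all 5 times, although the other collagens held more peaks by count at W6 and W12, and the other collagens had their highest density, 8.59 peaks per Mb, at W6. Requiring a maximum above 3600 RPKM left 0, 19, 28, 25 and 12 collagen peaks at D0, W1, W2, W6 and W12, and using gene bodies without flanks left 38 at W1 and 32 at W2.

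**Figure D2:**
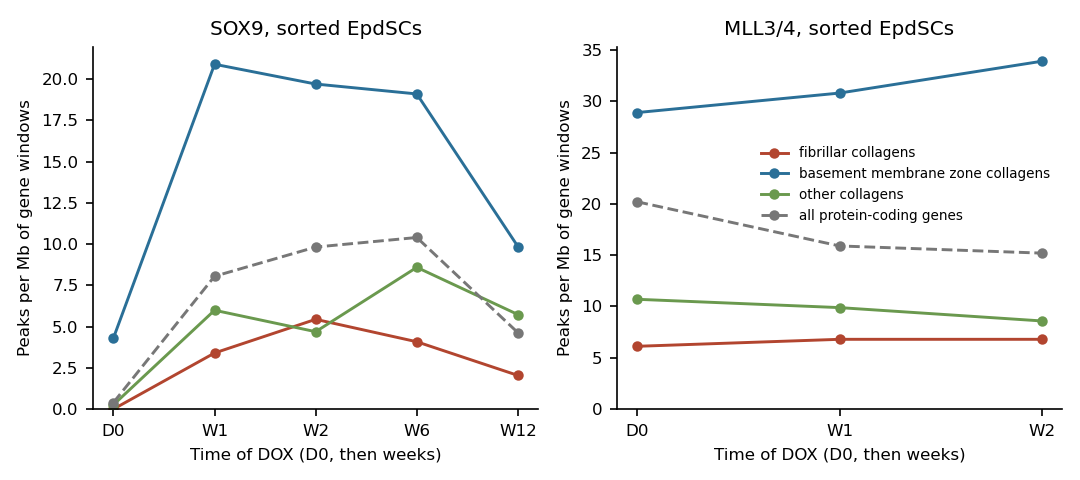
Peaks per Mb of gene windows for SOX9 (left) and MLL3/4 (right) against the time of DOX, with 1 line per collagen class and a dashed line for all protein-coding genes; each point is 1 pooled list. Basement membrane zone collagens lie highest at every time, at 20.9 SOX9 peaks per Mb at W1 and 28.9 MLL3/4 peaks per Mb at D0.

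*Col17a1*, the gene of the hemidesmosomal collagen, was the collagen gene with most peaks in the SOX9 list of D0. The paper describes EpdSCs as SOX9-negative, and no D0 peak in a collagen window exceeded 3600 RPKM. The D0 peak at the *Col17a1* promoter also overlapped a MYC-tag peak of cultured cells without DOX. Whether D0 peaks mark bound SOX9 was not tested. The SOX9 peaks of *Col17a1* numbered 5, 6, 4, 9 and 4 from D0 to W12, and its MLL3/4 peaks 12, 9 and 8 from D0 to W2. Most of its SOX9 peaks lay upstream of the gene rather than in it. The strongest was at -6373 bp from the 5′ end, with maxima of 2736, 6339, 10237, 6926 and 8043 RPKM from D0 to W12. It overlapped an MLL3/4 peak in all 7 MLL3/4 lists and a MYC-tag peak of WT-SOX9 (6074 RPKM) and dTA-SOX9 (3487 RPKM), but no peak of dHMG-SOX9.

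*Col4a2*, which encodes a chain of the type IV network, had the most SOX9 regions of all collagen genes, 12 when peaks of W1 to W12 were merged, followed by *Col17a1* with 10. Its SOX9 peaks numbered 1, 10, 9, 6 and 4 and its MLL3/4 peaks 7, 11 and 12 over the same times. Its strongest W2 peak lay in an intron, 54947 bp from the 5′ end, with maxima of 6742, 10161, 5163 and 5607 RPKM from W1 to W12 and no SOX9 peak at D0. There was no MLL3/4 peak at this site at D0 and one at W1 and at W2, and in culture an MLL3/4 peak appeared here only with WT-SOX9 and DOX, where the MYC-tag peak reached 8536 RPKM. The neighbouring *Col4a1*, whose window shares peaks with that of *Col4a2*, had 0, 2, 1, 0 and 1 SOX9 peaks.

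The sequences at these 2 sites and at the 4 other strongest W2 peaks of the 3 classes are shown to let the letters at the summit be compared between classes. Each is 101 bases of GRCm38.p6, plus strand, centred on the maximum of the W2 peak, with capitals marking a 7-letter SOX word or, elsewhere, its 5-letter core. The core is ATTGT or TTTGT, the word is the core preceded by CC or GC, and both were sought on either strand, every word thus holding a core.
*Col17a1* chr19:47698417-47698517: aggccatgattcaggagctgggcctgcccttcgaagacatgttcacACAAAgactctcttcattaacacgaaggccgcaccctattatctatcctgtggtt
*Col4a2* chr8:11367702-11367802: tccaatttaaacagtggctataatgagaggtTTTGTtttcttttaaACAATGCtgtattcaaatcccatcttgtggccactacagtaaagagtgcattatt
*Col27a1* chr4:63323645-63323745: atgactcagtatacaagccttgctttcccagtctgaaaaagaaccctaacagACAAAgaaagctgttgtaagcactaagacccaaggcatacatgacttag
*Col1a1* chr11:94955287-94955387: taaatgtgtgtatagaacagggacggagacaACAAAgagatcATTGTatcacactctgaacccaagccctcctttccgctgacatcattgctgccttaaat
*Col28a1* chr6:8172115-8172215: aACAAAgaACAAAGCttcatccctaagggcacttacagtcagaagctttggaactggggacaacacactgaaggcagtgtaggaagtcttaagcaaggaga
*Col16a1* chr4:130056068-130056168: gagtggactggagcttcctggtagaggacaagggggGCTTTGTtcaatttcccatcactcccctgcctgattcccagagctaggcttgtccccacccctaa
The 7-letter word stands in the sequences of *Col4a2*, *Col28a1* and *Col16a1*, while those of *Col17a1*, *Col27a1* and *Col1a1* hold only the 5-letter core.

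**Figure D3:**
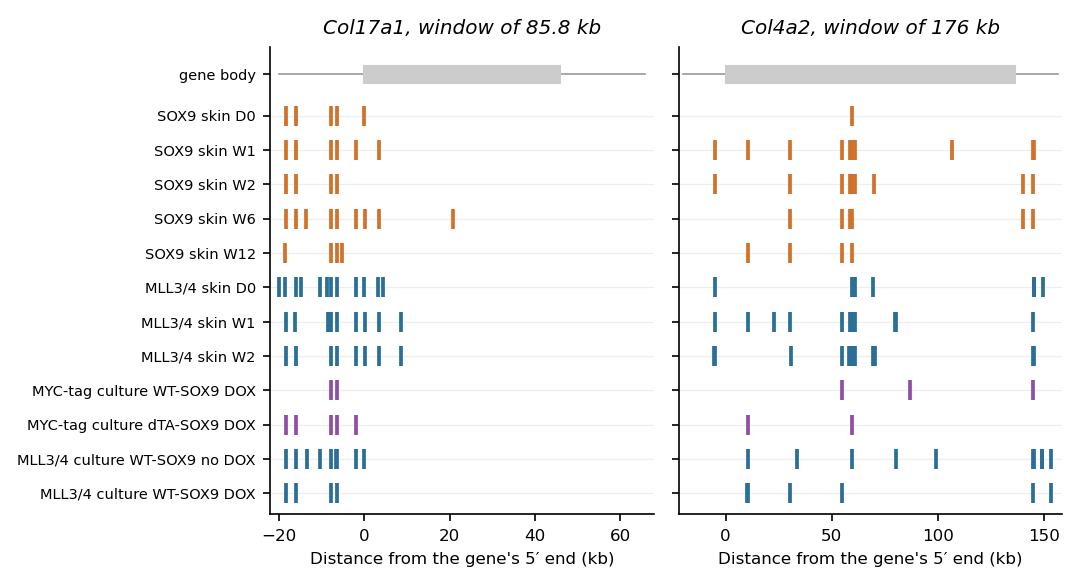
Positions of peak centres in the windows of *Col17a1* (left) and *Col4a2* (right), as distance from the 5′ end of the gene in kb, with 1 row per peak list and the gene body as a grey bar. SOX9 peaks of *Col17a1* cluster upstream of the gene from D0 onwards, and those of *Col4a2* lie mostly in introns and number 1 at D0 and 10 at W1.

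The remaining basement membrane zone genes followed *Col4a2* in holding few or no SOX9 peaks at D0. *Col18a1*, whose product yields endostatin, had 0, 5, 6, 5 and 1 SOX9 peaks from D0 to W12, and all 6 of its merged regions overlapped a D0 MLL3/4 peak. *Col7a1*, the anchoring fibril gene, had 0, 3, 5, 4 and 1, of which some lay within 1 kb of the start of the neighbouring *Uqcrc1* or *Pfkfb4*, so that they cannot be assigned to *Col7a1* alone. *Col15a1* had 0, 3, 4, 4 and 3 SOX9 peaks and 3, 4 and 7 MLL3/4 peaks from D0 to W2. *Col4a6* had 0, 3, 3, 2 and 1, *Col4a5* had 2 at W1 and none at the other times, and *Col4a4* had 1, 2, 1, 1 and 2. *Col4a3* had 1 at W12 only, which lies in the window it shares with *Col4a4*.

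Of the 8 merged SOX9 regions at fibrillar genes, 4 belonged to *Col27a1*, a fibrillar collagen known from cartilage, which had 0, 3, 4, 4 and 1 SOX9 peaks from D0 to W12. Its intronic site, 109691 bp from the 5′ end, reached 8528, 12224, 7262 and 6894 RPKM at W1, W2, W6 and W12, the highest maximum at W2 in any collagen window, and overlapped MLL3/4 peaks in all 7 lists. *Col1a1*, a chain of type I collagen, had 0, 1, 2, 1 and 1 SOX9 peaks. Its main site lay downstream of the gene, 19113 bp from the 5′ end, with 6684, 10543, 8186 and 5055 RPKM at the same times, a MYC-tag peak of WT-SOX9 (2462 RPKM) and no MLL3/4 peak in any list. *Col24a1* had 1 SOX9 peak at each time from W1, and *Col11a2*, a cartilage collagen gene, had 1 at W2 only. That *Col11a2* peak lay within 1 kb of the start of *H2-Ke6*, and some of the peaks counted for *Col27a1* within 1 kb of that of *Orm1*.

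Among the other collagens, *Col16a1*, a collagen associated with fibril surfaces, had 0, 4, 5, 6 and 2 SOX9 peaks, some of them within 1 kb of the start of the neighbouring *Pef1*. Its strongest W2 peak, the sequence of which is given above, lay at an internal transcript start 8278 bp from the 5′ end, with 2363, 6952, 7430 and 4412 RPKM from W1 to W12 and no MLL3/4 peak in any list. *Col28a1* had 0, 2, 2, 3 and 3 SOX9 peaks, and the intronic site shown reached 2190, 7334, 9109 and 5331 RPKM, with MLL3/4 peaks at W1 and W2 but not at D0. *Col8a1*, which encodes a short-chain network collagen, had 0, 1, 3, 5 and 2. *Col14a1*, another fibril-associated collagen gene, had 0, 1, 1, 4 and 3, and the cartilage gene *Col9a1* had 0, 1, 1, 4 and 2. *Col25a1*, which encodes a transmembrane collagen, had none until W6, when it had 2, and 4 at W12, all of them intronic. *Col6a1*, of the microfibril collagen VI, had 0, 2, 1, 1 and 1.

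To compare SOX9 over time site by site, the peaks of W1 to W12 were merged into regions, which gave 107 in collagen windows. Of these, 21 (19.6%, 95% CI 13.2 to 28.1) were present at all 4 times, against 17.9% of the 28549 regions of the whole series. Regions seen only at W1 or W2 numbered 28 (26.2%, whole series 23.6%) and those seen only at W6 or W12 numbered 33 (30.8%, whole series 25.7%). All 3 values of the whole series lay within the intervals of the collagen regions. The classes were not alike: 26 of 53 regions of the other collagens (49.1%, 95% CI 36.1 to 62.1) were seen only at W6 or W12, against 6 of 46 in the basement membrane zone (13.0%, 95% CI 6.12 to 25.7). These late regions were spread over 13 of the 18 other collagen genes with a region, and included all 4 of *Col25a1*, 4 of 5 at *Col14a1*, 4 of 5 at *Col9a1*, and 3 each at *Col8a1* and *Col16a1*. In the basement membrane zone they occurred at 4 of 10 genes, with 4 of the 6 at *Col17a1*. The 21 regions present at all 4 times included 12 of the basement membrane zone, 3 each at *Col17a1* and *Col4a2*.

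Whether SOX9 reached sites that already carried MLL3/4 was asked next. Of the SOX9 peaks in collagen windows, 59.7%, 56.9%, 41.4% and 29.3% (W1 to W12) overlapped a D0 MLL3/4 peak, against 67.7%, 66.3%, 52.8% and 40.7% of the whole lists. The basement membrane zone stood at 70.6% (95% CI 53.8 to 83.2) at W1 and 67.7% at W6, near or above the whole lists. The other collagens stood at 47.8% (95% CI 29.2 to 67.0) at W1. Their share was 18.2% at W6, with an interval of 8.61 to 34.4, and 9.09% at W12, with one of 2.53 to 27.8. At every time the share was higher in the basement membrane zone than in the other collagens, also under each of the 8 ways of processing compared. Of the regions seen only at W6 or W12, 4 of 33 (12.1%) lay on a D0 MLL3/4 peak, against 16 of 28 (57.1%) of those seen only at W1 or W2, and 20.3% and 65.2% over the whole series. At the same time of sampling, 77.4% of W1 and 77.6% of W2 SOX9 peaks in collagen windows overlapped an MLL3/4 peak, against 82.0% and 78.7% of the whole lists.

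The letters at the summits were counted in windows of 50 bp to each side of the maximum, with windows 1 kb to each side as control. The 7-letter SOX word stood in 14 of 62 W1 peaks (22.6%, control 5.65%) and 11 of 58 W2 peaks (19.0%, control 5.17%) of collagen windows, and later in 19 of 70 W6 peaks (27.1%, control 4.29%) and 12 of 41 W12 peaks (29.3%, control 3.66%). Over the whole lists the shares were 18.5%, 15.5%, 18.8% and 24.8%. It was present in 14.7%, 15.6%, 12.9% and 18.8% of basement membrane zone peaks and in 30.4%, 22.2%, 36.4% and 36.4% of peaks at the other collagens. None of the 8 D0 peaks held it, and over the whole D0 list its share was 8.21% against 6% in controls. The word was therefore less frequent in the class with more prior MLL3/4 at each time, although the intervals of both classes overlapped. With the 5-letter core alone, 56.5% of W1 and 85.4% of W12 peaks had a match, and with an 8-letter word, the core preceded by CC and followed by T, the shares were 3.23% and 7.32%.

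**Figure D4:**
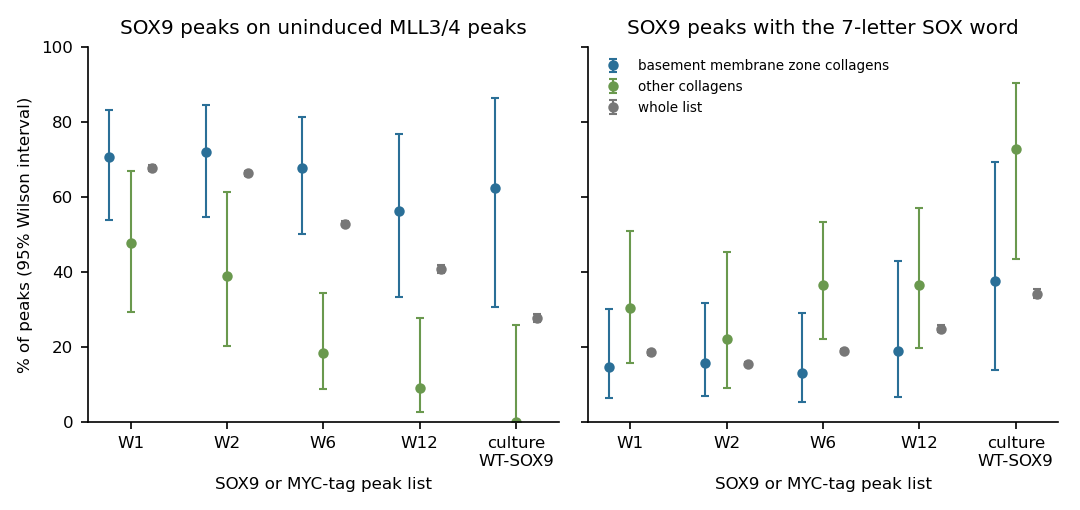
Share of SOX9 or MYC-tag peaks that overlap an uninduced MLL3/4 peak (left) and that hold the 7-letter SOX word within 50 bp of the summit (right), in percent with 95% Wilson intervals, for basement membrane zone collagens, other collagens and the whole list. At W6, 67.7% of basement membrane zone peaks and 18.2% of peaks at the other collagens lay on D0 MLL3/4, and the word stood in 12.9% and 36.4% of them.

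MLL3/4 itself was then followed in skin. At least 1 MLL3/4 peak was present at 25 collagen genes (56.8%) at D0 against 60.8% of all genes, at 28 (63.6%) at W1 against 54%, and at 28 (63.6%) at W2 against 51.6%. All 10 basement membrane zone genes had MLL3/4 peaks at each of these times, while 3, 4 and 5 of the 11 fibrillar genes and 12, 14 and 13 of the 23 others did. The number of MLL3/4 peaks in collagen windows was 97, 98 and 98 at D0, W1 and W2, that is 14, 14.1 and 14.1 peaks per Mb, against 20.2, 15.9 and 15.2 per Mb over all protein-coding windows. The collagen density was thus below that of all genes at all 3 times. The basement membrane zone held 47, 50 and 55 of these peaks and the other collagens 41, 38 and 33. At W1, 18 collagen genes (40.9%) had more MLL3/4 peaks than at D0 against 14.4% of all genes, and 14 (31.8%) had fewer against 38.7%. At W2, 14 (31.8%) had more against 12.5%, and 11 (25%) had fewer against 39.6%. Among windows of at least 100 kb, 53.6% of the 28 collagen genes had more peaks at W1 against 26.8% of all genes. Of the 10 basement membrane zone genes, 7 had more MLL3/4 peaks at W1 and 3 had fewer, the latter being *Col17a1*, *Col18a1* and *Col7a1*. Windows of *Col4a1* and *Col4a2* shared 1 MLL3/4 peak at D0 and 2 at W1, and so did those of *Col4a5* and *Col4a6*. Counts of genes within these pairs are therefore not independent.

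Individual MLL3/4 peaks differed between the lists despite the near constant total. With a single pooled list per time, changed binding and a peak crossing the calling threshold cannot be told apart. Of the 97 D0 MLL3/4 peaks, 44 (45.4%) had no overlapping peak at W1, against 48.5% of the whole list, and 36 (37.1%, 95% CI 28.2 to 47.0) had none at W2, against 48.7%. In the basement membrane zone 17 of 47 (36.2%, 95% CI 24 to 50.5) were lost at W1 and 10 of 47 (21.3%, 95% CI 12 to 34.9) at W2. At the other collagens 22 of 41 (53.7%, 95% CI 38.7 to 67.9) were lost at both times, so that the intervals overlapped at W1. The share lost was lower in the basement membrane zone than at the other collagens in all 7 ways of processing compared at W1 and at W2. Conversely, 45 of 98 W1 peaks (45.9%, whole list 39.7%) and 36.7% of W2 peaks (whole list 35.7%) had no D0 counterpart. In fibrillar windows these were 8 of 10 at W1 (80%, 95% CI 49 to 94.3) and 6 of 10 at W2 (60%, 95% CI 31.3 to 83.2), in the basement membrane zone 42% and 30.9%, and at the other collagens 42.1% and 39.4%. The fibrillar W1 share was 33.3% in the top 50% by total signal, where the other classes stood at 33.3% and 31.8%. It was 50% with flanks of 50 kb, and between 75% and 83.3% in the remaining alternatives. Taking the 2 genes of each class with most losses at W1 (ties by symbol), D0 peaks were lost at *Col23a1* (5 of 8), *Col17a1* (4 of 12), *Col4a2* (4 of 7), *Col8a2* (4 of 5), *Col11a2* (3 of 3) and *Col27a1* (1 of 5), and *Col18a1*, *Col19a1* and *Col6a5* lost 3 each. By the same rule, W1 peaks were gained at *Col4a2* (8 of 11), *Col27a1* (4 of 6), *Col4a6* (4 of 7), *Col8a1* (4 of 6), *Col11a1* (2 of 2) and *Col14a1* (2 of 2), and several further genes, such as *Col9a1* and *Col15a1*, also gained 2.

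SOX9 was unevenly present among these MLL3/4 peaks. At W1 it overlapped 4 of the 44 lost peaks (9.09%, whole list 7.58%), 17 of the 45 gained (37.8%, 95% CI 25.1 to 52.4, whole list 30.5%) and 38 of the 53 kept (71.7%, whole list 55.0%). At W2 it overlapped 0 of 36 lost peaks, 12 of 36 gained (33.3%) and 36 of 62 kept (58.1%), against 9.06%, 38.5% and 58.4% of the whole list. The share with SOX9 was lower among lost than among gained peaks at both times, and it was lower over the whole lists too. At *Col4a2*, 5 of the 8 gained peaks and 2 of the 4 lost peaks held SOX9 at W1. None of the 4 peaks gained at *Col8a1*, and neither of those gained at *Col11a1*, held SOX9, nor did any of the 5 lost at *Col23a1* and the 4 lost at *Col17a1*.

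**Figure D5:**
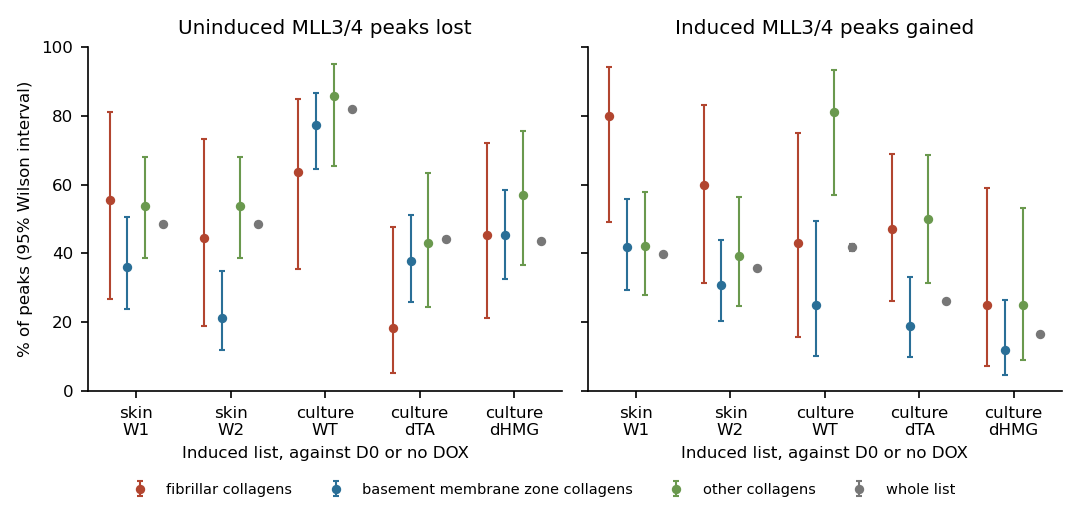
Share of uninduced MLL3/4 peaks lost (left) and of induced MLL3/4 peaks gained (right), in percent with 95% Wilson intervals, for each collagen class and the whole list in skin and culture. With WT-SOX9 in culture, 81.2% of the MLL3/4 peaks at the other collagens were gained, against 25% in the basement membrane zone and 41.8% of the whole list.

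In cultured keratinocytes, MYC-tag peaks without DOX were found at 4 collagen genes (9.09%) against 12.6% of all genes. With DOX they were found at 14 genes (31.8%) for WT-SOX9 against 20.9%, at 17 (38.6%) for dTA-SOX9 against 27.1% and at 9 (20.5%) for dHMG-SOX9 against 18.8%. Among windows of at least 100 kb, the share was 32.1% against 38.9% of all genes with WT-SOX9, 46.4% against 50.1% with dTA-SOX9 and 21.4% against 26.5% with dHMG-SOX9, so that the excess over all genes was not seen among long genes in any of the 3 lines. The collagen windows held 4 MYC-tag peaks without DOX, and 21, 26 and 9 with WT-SOX9, dTA-SOX9 and dHMG-SOX9. With WT-SOX9, 11 of the 21 lay at other collagens, 8 in the basement membrane zone and 2 at fibrillar genes, and with dTA-SOX9, 14 of the 26 lay in the basement membrane zone and 7 at others. *Col17a1* had 1, 2, 5 and 1 MYC-tag peaks, *Col4a2* 0, 3, 2 and 0, *Col19a1*, which encodes a fibril-associated collagen, 0, 3, 0 and 0, and *Col15a1* 0, 0, 3 and 0 (without DOX, WT-SOX9, dTA-SOX9 and dHMG-SOX9). Of the 21 WT-SOX9 peaks, 4 (19%, whole list 19.2%) were shared with dTA-SOX9, and all 4 lay in the basement membrane zone. With skin, they shared 11 (52.4%, whole list 37.6%) at W1 and 16 (76.2%, whole list 48.5%) at W6, and among the other collagens 3 of 11 at W1 and 8 of 11 at W6. None of the 28 collagen regions that SOX9 held only at W1 or W2 in skin had a WT-SOX9 peak in culture (whole series 2.44%), while 10 of the 21 present at all 4 times did (47.6%, whole series 32.8%).

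The WT-SOX9 peaks of culture were then set beside MLL3/4 and searched for the SOX word. On MLL3/4 peaks of cells without DOX lay 5 of 21 (23.8%, whole list 27.7%), that is 5 of 8 in the basement membrane zone, 0 of 11 at other collagens (0%, 95% CI 0 to 25.9) and 0 of 2 at fibrillar genes. With gene bodies without flanks, the share was 6.25% over all collagens, 25% in the basement membrane zone and 0% at the others. On MLL3/4 peaks of WT-SOX9 cells with DOX lay 15 of 21 (71.4%, whole list 56.6%), with 7 of 8 in the basement membrane zone and 8 of 11 (72.7%) at other collagens. The 7-letter SOX word stood in 12 of 21 (57.1%, 95% CI 36.5 to 75.5, control 2.38%, whole list 34.2%), including 8 of 11 (72.7%, 95% CI 43.4 to 90.3) at other collagens and 3 of 8 (37.5%, 95% CI 13.7 to 69.4) in the basement membrane zone, intervals that overlap. The 5-letter core stood in 90.9% and 87.5% of them. By contrast, 19 of 26 dTA-SOX9 peaks (73.1%, whole list 68.3%) lay on MLL3/4 peaks of cells without DOX, with 13 of 14 in the basement membrane zone and 2 of 7 at other collagens. The word stood in 3 of the 26 (11.5%, whole list 12.6%), that is 1 of 14 in the basement membrane zone, 0 of 7 at others and 2 of 5 at fibrillar genes. The dTA-SOX9 share on MLL3/4 was 50% when lists of equal size were compared. In collagen windows, 1 of 9 dHMG-SOX9 peaks and 0 of 4 peaks without DOX held the word. Over the whole lists its share was 5.28% with dHMG-SOX9 (control 5.59%) and 5.22% without DOX (control 6.4%), not above control. The paper reports that dHMG-SOX9 failed to bind DNA.

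The 3 strongest WT-SOX9 peaks at other collagens, chosen after their values were seen, are printed because each overlapped an MLL3/4 peak in cells with WT-SOX9 and DOX and in no other MLL3/4 list of skin or culture. Capitals mark the same words as above, in 101 bases of GRCm38.p6 on the plus strand.
*Col8a1* chr16:57744648-57744748: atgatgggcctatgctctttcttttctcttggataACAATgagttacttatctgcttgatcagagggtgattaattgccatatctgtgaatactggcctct
*Col19a1* chr1:24309928-24310028: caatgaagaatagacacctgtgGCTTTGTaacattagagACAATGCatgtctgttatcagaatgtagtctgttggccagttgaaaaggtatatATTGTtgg
*Col14a1* chr15:55457401-55457501: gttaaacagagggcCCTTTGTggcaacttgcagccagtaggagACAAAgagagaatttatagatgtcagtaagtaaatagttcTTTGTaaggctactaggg
All 3 sites are intronic. The MYC-tag maxima with WT-SOX9 were 5581 RPKM at *Col8a1*, 5417 at *Col19a1* and 4597 at *Col14a1*, and dTA-SOX9 and dHMG-SOX9 had no peak there. In skin, SOX9 peaks overlapped the *Col8a1* site at W2, W6 and W12 (2445, 3778 and 2620 RPKM), the *Col14a1* site at W6 and W12 (2141 and 2252 RPKM) and the *Col19a1* site at W6 alone (2435 RPKM), and none did so at W1. The sequence of *Col19a1* holds 2 of the 7-letter words, that of *Col14a1* holds 1, and that of *Col8a1* holds the 5-letter core only.

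MLL3/4 in culture was present at 28 collagen genes (63.6%) without DOX against 57.8% of all genes, and with DOX at 15 (34.1%) for WT-SOX9 against 28.6%, 30 (68.2%) for dTA-SOX9 against 51% and 21 (47.7%) for dHMG-SOX9 against 50.7%. The MLL3/4 list of WT-SOX9 with DOX was the shortest, with 10543 peaks against 33975 without DOX. In collagen windows there were 85 MLL3/4 peaks without DOX and 39, 83 and 54 with WT-SOX9, dTA-SOX9 and dHMG-SOX9. The direction for WT-SOX9 turned when all 4 lists were reduced to 10543 peaks by total signal, with 25 peaks in 10 collagen genes without DOX and 39 peaks in 15 genes with WT-SOX9, and the other lines then had 30 and 24 peaks. The counts of genes with fewer or more peaks that follow are from the lists as deposited, without such a reduction. With WT-SOX9, 24 collagen genes (54.5%) had fewer peaks than without DOX against 51.4% of all genes, and 5 (11.4%) had more against 4.13%. With dTA-SOX9, 9 (20.5%) had fewer against 35% and 12 (27.3%) had more against 11%. With dHMG-SOX9, 21 (47.7%) had fewer against 33.3% and 2 (4.55%) had more against 9.4%. Among windows of at least 100 kb, fewer peaks with dHMG-SOX9 were found at 50% of collagen genes against 48.9% of all genes, with dTA-SOX9 at 25% against 43.6%, and with WT-SOX9 at 57.1% against 63.3%. More peaks were found there at 3.57% against 9.37%, 32.1% against 16.8% and 17.9% against 7.46%, in the same order of lines.

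By class, the basement membrane zone held 53 MLL3/4 peaks without DOX and 16, 42 and 34 with WT-SOX9, dTA-SOX9 and dHMG-SOX9, the fibrillar genes 11, 7, 17 and 8, and the others 21, 16, 24 and 12. In lists of equal size the basement membrane zone held 19 without DOX and 16 with WT-SOX9. The direction for WT-SOX9 turned in the remaining classes, with 4 and 7 at fibrillar genes and 2 and 16 at the others. Counts by gene that follow are from the lists as deposited. *Col18a1* had 10, 0, 3 and 6, and *Col15a1* had 10, 1, 10 and 6. *Col17a1* had 9, 4, 9 and 8, *Col4a2* had 10, 6, 9 and 6, *Col7a1* had 7, 2, 4 and 5, and *Col27a1* had 8, 5, 6 and 5. Genes with more MLL3/4 peaks under WT-SOX9 were *Col28a1* (0 without DOX, 3 with it), *Col8a1* (1 and 3), *Col14a1* (3 and 4), *Col9a1* (0 and 1) and the fibrillar *Col11a1* (0 and 2), and all of these except *Col11a1* also had a MYC-tag peak of WT-SOX9. By class, fewer peaks with WT-SOX9 were counted at 8 of the 10 basement membrane zone genes, 11 of the 23 others and 5 of the 11 fibrillar genes, and more peaks at 0, 4 and 1, beside the 51.4% and 4.13% of all genes given above.

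Of the 85 MLL3/4 peaks without DOX, 66 (77.6%, whole list 82.0%) were lost with WT-SOX9, 36.5% (whole list 44.3%) with dTA-SOX9 and 48.2% (whole list 43.5%) with dHMG-SOX9. These shares move with list length, and in lists of equal size 48% were lost with WT-SOX9 and 20% with dHMG-SOX9. Of the MLL3/4 peaks present with WT-SOX9, 20 of 39 (51.3%, whole list 41.8%) were gained, with 13 of 16 (81.2%, 95% CI 57 to 93.4) at other collagens and 4 of 16 (25%, 95% CI 10.2 to 49.5) in the basement membrane zone. With dTA-SOX9 33.7% (whole list 26.1%) were gained, and with dHMG-SOX9 16.7% (whole list 16.7%). WT-SOX9 overlapped 0 of the 66 lost peaks (whole list 1.75%) and 10 of the 20 gained (50%, whole list 53.5%), among them 8 of the 13 gained at other collagens.

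Genes acting on collagens were counted in the same windows. Of 30 genes of collagen synthesis and crosslinking, 3, 10, 14, 13 and 10 had a SOX9 peak from D0 to W12 (10%, 33.3%, 46.7%, 43.3% and 33.3%, beside 3.43%, 38.5%, 44.2%, 44.5% and 26.2% of all genes), and 20, 20 and 17 had MLL3/4 peaks from D0 to W2 (66.7%, 66.7% and 56.7%, beside 60.8%, 54% and 51.6%). The SOX9 shares lay near those of all genes from W1 to W6. *P3h2*, a prolyl 3-hydroxylase, held 0, 12, 9, 10 and 4 SOX9 peaks and 22, 22 and 18 MLL3/4 peaks. The crosslinking enzyme gene *Lox* and the collagen chaperone gene *Serpinh1* held no SOX9 peak. Of 7 collagen receptor genes, 1, 5, 6, 7 and 4 had a SOX9 peak from D0 to W12, but their windows are long, the middle one of the 7 (*Itga2*) spanning 139 kb against a median of 57.4 kb over all genes. Their MLL3/4 peaks numbered 45, 28 and 22 from D0 to W2. The discoidin receptor gene *Ddr1* held 0, 5, 6, 5 and 3 SOX9 peaks, and *Ddr2* held 15, 4 and 4 MLL3/4 peaks. Of 10 cartilage genes, 0, 4, 4, 4 and 2 had a SOX9 peak, that is 40% from W1 to W6, near the shares of all genes. *Acan*, the aggrecan gene and a known SOX9 target in cartilage, held no peak in any list, as against 0, 11, 8, 14 and 12 SOX9 peaks at *Sox5* and 0, 7, 6, 7 and 4 at *Sox6*, both of which are very long genes.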

How the data were processed

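CNR was measured in 41 samples, of which 32 stand behind the 18 peak lists used. No list of the other 9 (BRG1, JUN and ARID1a) was analysed here. Titles number the pair of MLL3/4 samples for WT-SOX9 plus DOX as 1 and 2, but both descriptions say replicate 2. After trimming (Skewer), the authors mapped reads to mm10 (Bowtie2 2.2.9), discarded duplicates (Picard), selected short fragments and pooled replicates (SAMtools 1.3.1), computed tracks (deepTools 3.1.2) and called peaks by SEACR under stringent settings. Peak maxima of SOX9 and the MYC tag were deposited in RPKM, and the authors kept pooled peaks above 1800 RPKM. For pooled MLL3/4 peaks the deposited maximum signal is unscaled whole-number coverage, so it was not compared between lists. The deposited score of total signal, the sum over a peak, was used for ranking within lists only. Both replicate 1 lists (no DOX) are in RPKM and were not cut at 1800.

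Genes were from GENCODE vM21 on GRCm38.p6. The RPKM of 1 fragment was the step of which 100% of maxima were whole multiples within 0.02. Lost MLL3/4 peaks were uninduced peaks without an overlapping induced peak, and gained peaks the reverse. Samples were grouped by the labels. Named genes were, per class, the 3 with most SOX9 regions and the 2 each with most MLL3/4 peaks lost and gained at W1, a set of skin and cartilage collagens, and genes without SOX9. Named peaks were the 2 strongest of each class at W2 and the 2 strongest WT-SOX9 peaks in culture. Alternatives were flanks of 0 and 50 kb, nearest genes, lists of equal size, the top 50% by total signal, a maximum above 3600 RPKM, an overlap of 50%, merging within 500 bp, other words and windows, and replicate 1 alone. Python 3.11.15, pandas 2.3.3, numpy 2.4.6 and matplotlib 3.10.9 were used, and the scripts were tested on simulated data. The members, classes and lists were chosen with earlier results of these data known.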

Additional observations from a re-analysis of the deposited data

Results flagged for a closer look

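Several differences between contrasts in the change of MLL3/4 peaks, counted as induced minus uninduced peaks, had opposite signs in the single lists compared, and none of them was tested. Over all collagen windows the change was 1 in skin at W1 and -46 in culture with WT-SOX9, a difference of 47. In the basement membrane zone it was 3 in skin and -37 in culture, a difference of 40, and at fibrillar genes 1 and -4, a difference of 5. Within culture, fibrillar genes changed by -4 with WT-SOX9 and 6 with dTA-SOX9, a difference of -10, while dTA-SOX9 (6) and dHMG-SOX9 (-3) gave a difference of 9. The other collagens changed by -5 with WT-SOX9 and 3 with dTA-SOX9, a difference of -8, while dTA-SOX9 (3) and dHMG-SOX9 (-9) gave a difference of 12. The whole MLL3/4 lists also differed in length, with 37072 peaks at D0 and 31539 at W1 in skin, and in culture 33975 in uninduced cells and 10543, 25948 and 23301 with DOX (WT-SOX9, dTA-SOX9, dHMG-SOX9). In lists of equal size within skin and within culture, the change over all collagen windows was 10 in skin and 14 in culture with WT-SOX9, so the opposite signs were gone. Of the 7 pairs of contrasts above, 1 kept opposite signs in lists of equal size, the basement membrane zone with 8 in skin and -3 in culture with WT-SOX9. Fibrillar genes then changed by 2 in skin and by 3, 4 and 0 with WT-SOX9, dTA-SOX9 and dHMG-SOX9, and the other collagens by 14, 3 and 1 in the same order of lines.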

How the results depend on the processing

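Of 273 values of all collagens recomputed under alternatives, 201 stayed within 1.5 times the count or within the 95% interval of the share and 72 moved, none of them with flanks of 50 kb, an overlap of 50% or merging within 500 bp. Equal-size lists were made within SOX9 W1 to W12, skin MLL3/4, induced MYC-tag and culture MLL3/4, leaving D0 SOX9 and uninduced MYC-tag lists as deposited. They gave 36, 37 and 35 SOX9 peaks at W1, W2 and W6 and 17 genes at W1, 9 genes for dTA-SOX9, MLL3/4 in 10, 15, 15 and 9 genes (no DOX, WT-SOX9, dTA-SOX9, dHMG-SOX9), 48% lost and 66.7% gained with WT-SOX9, 20% lost with dHMG-SOX9, and MLL3/4 under 97.2% of W1 SOX9, 92.9% of WT-SOX9 (with DOX) and 50% of dTA-SOX9 peaks. The top 50% gave 4, 33, 36, 37 and 19 SOX9 peaks from D0 to W12, 1 gene at D0 and 16 at W1, MYC-tag in 2 (no DOX), 10 (dTA-SOX9) and 4 (dHMG-SOX9) genes, MLL3/4 in 14, 18 and 10 genes (no DOX, dTA-SOX9, dHMG-SOX9), 32.7% gained at W1, 3.7% gained and 36.6% lost with dHMG-SOX9, and 87.9% of W1 SOX9 on W1 MLL3/4. Gene bodies alone gave 2, 38 and 32 SOX9 peaks at D0, W1 and W2 in 2, 17 and 13 genes, MYC-tag in 1 (no DOX), 11 (dTA-SOX9) and 4 (dHMG-SOX9) genes, MLL3/4 in 13 genes with dHMG-SOX9, 69.2% gained with WT-SOX9 and 6.25% of WT-SOX9 peaks on prior MLL3/4. Above 3600 RPKM there were 0, 19, 28, 25 and 12 SOX9 peaks, in 0 genes at D0, 13 at W1 and 10 at W12, MYC-tag in 1, 6, 9 and 0 genes (no DOX, WT-SOX9, dTA-SOX9, dHMG-SOX9), and MLL3/4 under 89.5% of W1 and 100% of WT-SOX9 peaks. Nearest genes gave 3 genes at D0, and replicate 1 alone, which was not cut at 1800 RPKM, 15 genes with MYC-tag without DOX. For the SOX word, windows of 100 bp gave 38.6% at W6. The 5-letter core gave 56.5%, 50%, 57.1% and 85.4% at W1 to W12, 90.5% for WT-SOX9 and 46.2% for dTA-SOX9, and the 8-letter words 3.23%, 3.45%, 5.71%, 7.32%, 14.3% and 0%. Beyond list length, window width and word length, which these settings change by construction, the cause was not tested. No paired analysis was possible because each group has 1 pooled list. The number of peaks per class, often under 20, and the single list per group limit all class differences.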
